A study of Mus musculus with 12 samples.

Results

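Oxct1, Bdh1, Acat1 and Bdh2, genes of ketone body use, were followed through 12 RNA-seq libraries of mouse heart cardiomyocytes. The 4 genes were taken by symbol from the 25239 symbols that each of the 2 deposited count tables lists, and all 4 were present in both tables. They were selected on the rise of Oxct1 and Bdh1 in the first table, so the values of that table are a description here. The second table holds the values that the choice did not use. The knockout mice carry Myh6-Cre, a recombinase driven by the promoter of a cardiomyocyte myosin gene, together with floxed Chaf1a alleles. Their controls carry the floxed alleles, by the series' design text, although the genotype label reads WT, so Cre and genotype go together. The product of Chaf1a belongs to CAF-1, the complex that places histones on newly copied DNA. The groups were Chaf1a cko and Ctrl in the first table (the first set), and Chaf1a cko 3M and Ctrl 3M in the second (the 3M set), with 3 libraries each. The labels give no ages and do not spell out 3M, and they describe the RNA as coming from cultured cardiomyocytes.

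Ketone bodies, chiefly β-hydroxybutyrate and acetoacetate, are made from fatty acids in liver mitochondria and burned in other tissues, the heart among the most active of them. After entry through monocarboxylate transporters, β-hydroxybutyrate is oxidised to acetoacetate by BDH1 in the mitochondrial matrix. OXCT1, also called SCOT, then moves coenzyme A from succinyl-CoA onto acetoacetate, the step that liver lacks, and the thiolase ACAT1 splits the product into acetyl-CoA for the Krebs cycle. BDH2 is a cytosolic dehydrogenase named for the same substrate.

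The start regions of Oxct1 and Bdh1 are shown because these are the members with raised values in the first set and because each has an annotated antisense gene there. The stretches below, from RefSeq, whose promoter table matched 3 of the 4 members, are the bases 250 to 51 before the annotated starts, on the plus strand of GRCm38.p6, the assembly behind mm10. Bdh1 has 2 such starts in the RefSeq table. Capitals mark bases covered by an exon of an antisense gene in GENCODE M21, which is BC037032 at Oxct1 and Gm15743 at the second Bdh1 start.
Oxct1, chr15:4026178-4026377: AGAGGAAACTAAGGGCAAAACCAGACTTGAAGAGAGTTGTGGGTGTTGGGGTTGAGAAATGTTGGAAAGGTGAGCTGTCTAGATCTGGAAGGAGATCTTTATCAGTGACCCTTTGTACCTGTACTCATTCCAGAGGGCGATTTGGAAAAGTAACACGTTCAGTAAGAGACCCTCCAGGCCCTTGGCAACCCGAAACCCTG
Bdh1, first start, chr16:31422047-31422246: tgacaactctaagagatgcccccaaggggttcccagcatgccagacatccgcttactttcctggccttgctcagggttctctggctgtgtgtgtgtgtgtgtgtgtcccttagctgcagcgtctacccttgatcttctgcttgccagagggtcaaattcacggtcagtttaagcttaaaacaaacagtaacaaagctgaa
Bdh1, second start, chr16:31428503-31428702: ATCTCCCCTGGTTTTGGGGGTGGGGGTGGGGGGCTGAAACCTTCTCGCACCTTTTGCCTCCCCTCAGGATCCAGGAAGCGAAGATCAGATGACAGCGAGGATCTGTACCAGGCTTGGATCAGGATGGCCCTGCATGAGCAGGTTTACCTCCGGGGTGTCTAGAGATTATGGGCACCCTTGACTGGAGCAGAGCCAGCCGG
The 200 bases shown at Oxct1 and at the second Bdh1 start lie wholly within antisense exons, and 0 of those at the first Bdh1 start do. Exons of BC037032 share 467 bases with Oxct1 exons, and exons of Gm15743 share 533 bases with Bdh1 exons. Whether strand was used in counting was not given in the sources used here, and without it the reads of such pairs cannot be told apart over shared bases. BC037032 had at most 297 counts in a first-set library and 21 in a 3M library, and Gm15743 at most 64 and 17. In the first set BC037032 was at 17.9, 11.9 and 14.5 CPM in Chaf1a cko and at 8.90, 8.02 and 12.4 CPM in Ctrl. These levels were far below those of Oxct1 given later. Gm15743 was at 2.23, 2.39 and 0.987 CPM in Chaf1a cko and at 0.803, 0.828 and 3.02 CPM in Ctrl. Bdh1 was at 10.6, 14.1 and 10.9 CPM and at 3.81, 4.50 and 5.10 CPM in the same libraries. Gm15743 was thus not small beside Bdh1, least of all in Ctrl replicate 3.

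Several sequence motifs were looked for on both strands in the 250 bases before each start, including the 50 nearest bases that are not shown. The half-site of nuclear receptors reads AGGTCA. The extended site of estrogen-related receptors reads TCAAGGTCA and contains the half-site. The E-box reads CACGTG, the CCAAT box is spelled by its name, and the Sp1 site, or GC box, reads GGGCGG. None of these 5 words occurred at Oxct1 or at either Bdh1 start. Across 32851 promoter windows of the same length 14.0% held the half-site, 0.387% the extended site, 6.02% the E-box, 33.8% the CCAAT box and 32.7% the GC box. The lack of a match says only that these letters are not in the window. The window of Bdh2 held 1 CCAAT box, on the reverse strand, and Acat1 is only named here. The GC content of the windows was 52.0% at Oxct1, 49.6% at the first and 60.8% at the second Bdh1 start and 48.0% at Bdh2, against a median of 52.4% over all windows.

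The libraries held 15068468 to 20896673 counts in the first set and 10569325 to 16445963 in the 3M set. Chaf1a, the targeted gene, was at 29.0, 24.5 and 22.0 CPM (counts scaled to library size, with TMM factors within a table) in Chaf1a cko and at 22.7, 32.3 and 18.8 CPM in Ctrl. In the 3M set it was at 8.34, 5.58 and 5.54 CPM in Chaf1a cko 3M and at 1.88, 4.74 and 9.75 CPM in Ctrl 3M. Its log2 fold changes were 0.03 and 0.25, first set and 3M set in turn (adjusted p 0.981 and 0.952 in edgeR), so neither set showed less Chaf1a under the knockout label. Reads outside the deleted exons, which were not given in the sources used here, enter these values, and every direction below is that of libraries carrying the label. In the first set 94.8% to 97.6% of 1523 olfactory, vomeronasal and taste receptor genes, taken as largely silent in heart, had counts in each library, against 1.25% to 1.71% in the 3M set. Their 95th percentile, 5.39 CPM, is used as the background level of the first set. Summed counts of 4 Y-linked genes were 114.6 to 133.99 CPM in Chaf1a cko and 50.05 to 61.1 CPM in Ctrl, with Xist at 270 to 323 and 291 to 620 CPM, so first-set differences between genotypes and between sex mixtures cannot be told apart. Xist was at most 3.98 CPM in the 3M set, and the Y-linked sums there were 355 to 394 CPM in Chaf1a cko 3M and 393 to 646 CPM in Ctrl 3M.

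All 8 cardiomyocyte markers were present in every library. Their summed level was 86738 to 87339 CPM in Chaf1a cko and 91962 to 95154 CPM in Ctrl, and 44536 to 48800 CPM in Chaf1a cko 3M and 30349 to 36029 CPM in Ctrl 3M. The groups thus lay apart in both sets, in opposite directions, and these differences came chiefly from Myh6 and Ttn. In the first set 3 of the 8 markers, Myh6, Ryr2 and Ttn, were lower by the test, where 0.435% of all genes were. The others there had positive log2 fold changes, from 0.04 for Tnnt2 to 0.15 for Pln. In the 3M set 0 were called. Tnni3, Actn2 and Myl2 had log2 fold changes of -0.06, -0.05 and -0.19 there, and the others had positive values. The sum of 6 fibroblast markers was 1982 to 2010 CPM in Chaf1a cko and 2446 to 2493 CPM in Ctrl. That of 5 macrophage markers was 34.96 to 44.64 CPM in Chaf1a cko and 44.66 to 50.7 CPM in Ctrl, so these ranges nearly touched. In both sets 0 of the 5 macrophage markers passed. Adgre1 and C1qa, at means of 4.88 and 4.34 CPM, were below the first-set background level. Cd68 had a positive log2 fold change of 0.07 in the first set. By the test 4 of the 6 fibroblast markers were lower in the first set, where 0.435% of all genes were. Most of the fibroblast sum there came from Col1a1 and Col3a1. Tcf21 of the same list lay apart in the other direction, at 15.8, 19.0 and 17.8 CPM in Chaf1a cko and at 13.6, 10.8 and 9.55 CPM in Ctrl. It did not pass (log2 fold change 0.63, adjusted p 0.177 in edgeR). In the 3M set the macrophage sum was 99.0 to 147 CPM in Chaf1a cko 3M and 150 to 215 CPM in Ctrl 3M. These ranges also nearly touched. Cd68 and Ptprc had positive log2 fold changes of 0.12 and 0.15 there, and the other macrophage markers had negative values. Only C1qa of them lay apart, as lower in Chaf1a cko 3M. Ptprc was at 61.5 CPM in Ctrl 3M replicate 1, above its level in every other 3M library. The part of these shifts in the values of the ketone genes was not tested. The sums of the endothelial, mural, erythroid and hepatocyte markers overlapped between the groups in both sets, as did those of the fibroblasts in the 3M set. Of the markers behind these overlapping sums only Myh11, a mural marker, passed, as lower in the first set (log2 fold change -0.41, adjusted p 0.0118 in edgeR).

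Oxct1 was the most abundant member, and it was higher in Chaf1a cko than in Ctrl of the first set. Oxct1 (Entrez gene 67041, chromosome 15, 4026428 to 4155344 on GRCm38.p6) is the committed enzyme of ketone body use. It was at 338, 319 and 321 CPM in Chaf1a cko and at 216, 234 and 222 CPM in Ctrl. The 3 Chaf1a cko libraries lay close together and all above the highest Ctrl library. Chaf1a cko averaged 326 ± 10.5 CPM and Ctrl 224 ± 9.06 CPM (SD, n = 3 each). This is 1.46-fold, or a log2 fold change of 0.54 with a standard error (SE) of 0.05. This contrast chose the gene, so no test is given for it. Leaving out each library in turn gave 0.51 to 0.57. In bulk libraries, fewer cells of a type and less RNA per cell cannot be told apart.

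Bdh1 differed by a larger ratio from a far lower level. Bdh1 (Entrez gene 71911, chromosome 16, 31422297 to 31458901) catalyses the first step of β-hydroxybutyrate use. It was at 10.6, 14.1 and 10.9 CPM in Chaf1a cko, from 176, 265 and 220 counts, and at 3.81, 4.50 and 5.10 CPM in Ctrl, from 57, 87 and 108 counts. The groups lay apart, Chaf1a cko averaging 11.8 ± 1.95 CPM and Ctrl 4.47 ± 0.646 CPM (SD, n = 3 each). This is 2.64-fold, or a log2 fold change of 1.40 (SE 0.24), and leaving out each library in turn gave 1.26 to 1.51. All 3 Chaf1a cko libraries were above the background level of 5.39 CPM, and all 3 Ctrl libraries were below it. The mean of Chaf1a cko exceeded 99.8% of the chemoreceptor genes in the same libraries and that of Ctrl exceeded 89.6%. Per kilobase of exon, over the 1479 chemoreceptor genes with a length, these shares were 97.1% in Chaf1a cko and 76.9% in Ctrl. The Ctrl reads of Bdh1 were thus not separated from background reads, and the ratio is one over such reads.

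**Figure D1:**
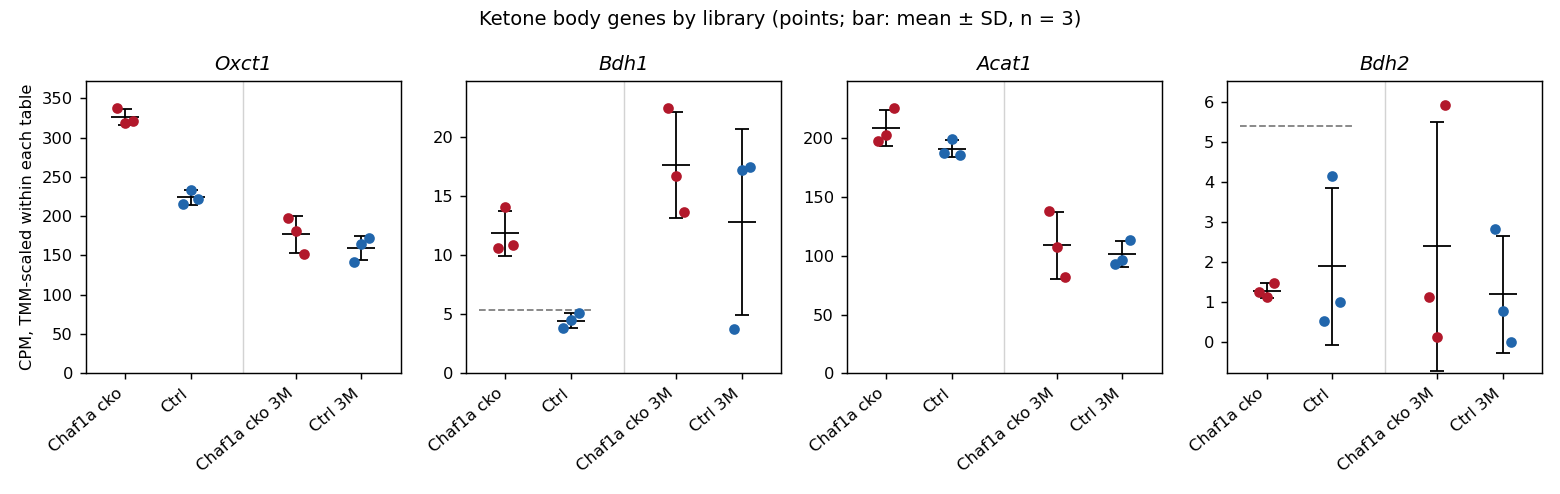
CPM of each member by library (points), with the mean ± SD of the 3 libraries of each group as bars; each panel has its own linear axis and dashed lines mark the first-set background of 5.39 CPM. Oxct1 and Bdh1 show no overlap between Chaf1a cko and Ctrl of the first set, while in the 3M set the groups of every member overlap.

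**Figure D2:**
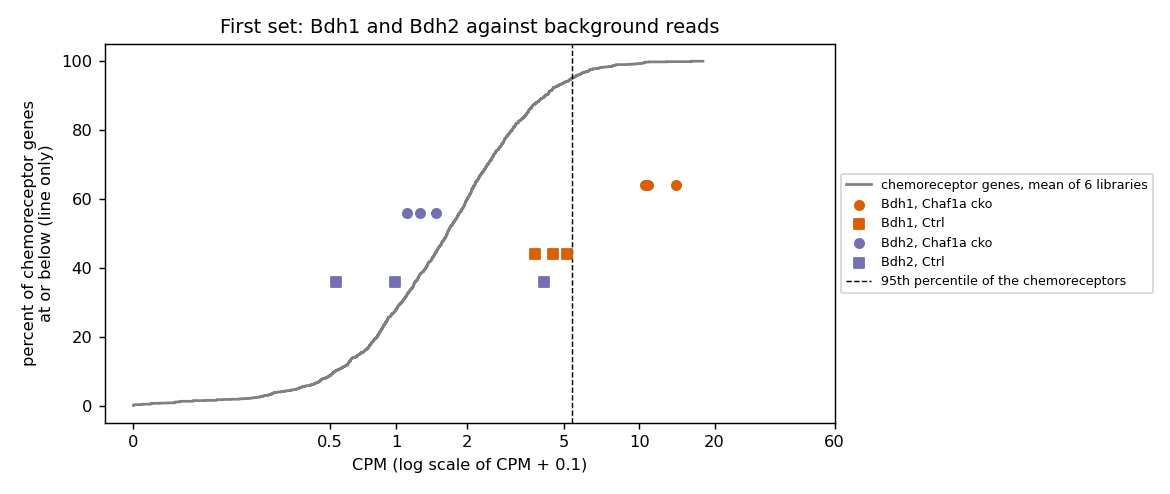
Cumulative share of 1523 chemoreceptor genes (line, vertical axis) by their mean first-set CPM (horizontal axis, log scale of CPM + 0.1), with single libraries of Bdh1 and Bdh2 as points whose height has no meaning. Bdh1 lies right of the dashed 95th percentile in Chaf1a cko and left of it in Ctrl, and Bdh2 lies left of it in all 6 libraries.

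Acat1 and Bdh2 did not share the separation seen for Oxct1 and Bdh1. Acat1 (Entrez gene 110446, chromosome 9, 53580522 to 53610350), the mitochondrial thiolase that ends the pathway, was at 197, 202 and 226 CPM in Chaf1a cko and at 187, 199 and 186 CPM in Ctrl. The lowest Chaf1a cko library was below the highest Ctrl library, and the log2 fold change was 0.13 (SE 0.06). Bdh2 (Entrez gene 69772, chromosome 3, 135281221 to 135304426) was at 1.26, 1.12 and 1.48 CPM in Chaf1a cko and at 0.535, 4.14 and 0.992 CPM in Ctrl, all below the background level. Its log2 fold change was -0.56 (SE 0.64) and became 0.73 without Ctrl replicate 2, the library with 80 counts against 8 to 30 in the others. CPM ranges lay apart for 2 of the 4 members, Oxct1 and Bdh1, where 16.2% of 22965 genes lay apart. Nothing is read from this count, since the contrast supplied the choice. All 4 members passed the filter on low counts in both sets.

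In the 3M set, whose values the choice did not use, 0 of the 4 members passed the test, where 0.0144% of 13925 genes tested passed. In edgeR 0 of the 4 had an unadjusted p under 0.05, where 6.93% of genes did, and DESeq2 called none of them. Oxct1 was at 198, 181 and 151 CPM in Chaf1a cko 3M and at 142, 164 and 172 CPM in Ctrl 3M. The groups overlapped, Chaf1a cko 3M averaging 177 ± 23.4 CPM and Ctrl 3M 159 ± 15.4 CPM (SD, n = 3 each). Oxct1 had a log2 fold change of 0.15 (SE 0.19, 95% interval -0.28 to 0.58, adjusted p 0.897 in edgeR's quasi-likelihood test), and the interval includes 0 as well as the first-set value of 0.54.

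Bdh1 in the 3M set was at 22.5, 16.7 and 13.6 CPM in Chaf1a cko 3M and at 3.75, 17.2 and 17.5 CPM in Ctrl 3M. Ctrl 3M replicate 1 alone stood low, with 40 counts, and the other 5 libraries lay between 13.6 and 22.5 CPM. The log2 fold change of 0.45 (SE 0.53, 95% interval -0.77 to 1.67) did not pass in edgeR (adjusted p 0.887), and it was 0.02 without Ctrl 3M replicate 1. The interval includes both 0 and the first-set value of 1.40. The same library was also the lowest of the Ctrl 3M group for Ppara, at 3.00 CPM against 25.5 and 13.1, a gene singled out here after its values were seen.

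Acat1 was at 138, 107 and 81.5 CPM in Chaf1a cko 3M and at 93.2, 96.6 and 114 CPM in Ctrl 3M, a wider spread within the first of these groups than the distance between their means. Its log2 fold change of 0.11 (SE 0.23, 95% interval -0.42 to 0.63) did not pass in edgeR (adjusted p 0.946) and turned to -0.10 without Chaf1a cko 3M replicate 1. Bdh2 had 12, 2 and 93 counts in Chaf1a cko 3M and 30, 13 and 0 in Ctrl 3M, too scattered to compare (log2 fold change 1.01, SE 1.64, adjusted p 0.919 in edgeR). Without Chaf1a cko 3M replicate 3 its log2 fold change was -0.93. Whether the effect on a member differed between the sets was not tested, because the first-set contrast chose the members.

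**Figure D3:**
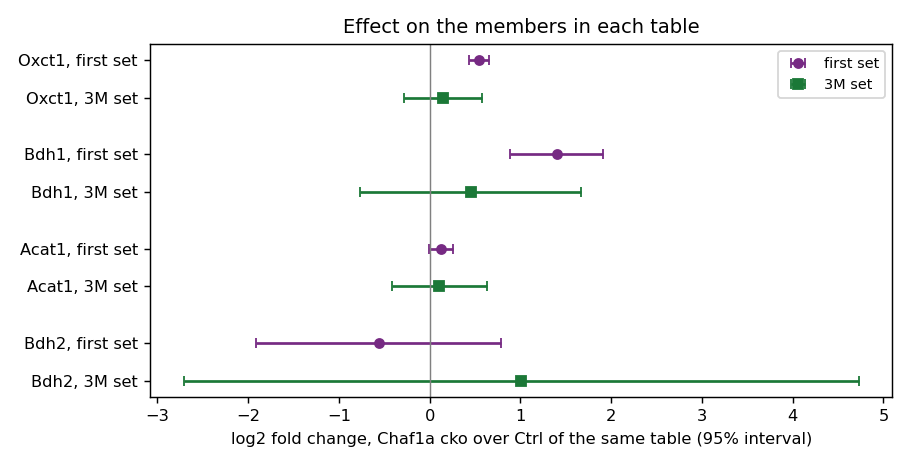
Log2 fold change of Chaf1a cko over Ctrl within each table (horizontal axis) for each member and set, with 95% intervals from the edgeR fit. The first-set contrast chose the members, so its intervals are a description and not a test. The 3M intervals of all 4 members include 0, and those of Oxct1 and Bdh1 also include their first-set values of 0.54 and 1.40.

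Levels of the members were ordered alike in all 4 groups when scaled per kilobase of exon (GENCODE M21). In the first set Oxct1 averaged 88.1 ± 2.85 CPM per kb in Chaf1a cko and 60.5 ± 2.45 in Ctrl, and Acat1 followed at 55.5 ± 4.04 and 50.8 ± 1.92 CPM per kb (SD, n = 3 each). Oxct1 stood above 98.7% of 22272 tested genes with a length in Chaf1a cko and above 98.0% in Ctrl. Bdh1 averaged 3.05 CPM per kb in Chaf1a cko and 1.15 in Ctrl, above 57.7% and 24.1% of those genes, and Bdh2 was last at 0.303 and 0.444 CPM per kb. The dehydrogenase Bdh1 was thus far less abundant than the transferase and the thiolase that act after it. In the 3M set Oxct1 averaged 47.7 ± 6.33 CPM per kb in Chaf1a cko 3M and 43.1 ± 4.17 in Ctrl 3M, and Acat1 29.0 ± 7.53 and 26.9 ± 2.92. Bdh1 averaged 4.53 and 3.30 CPM per kb and Bdh2 0.563 and 0.281 there. The values of neighbours in this order did not overlap within any group, although Bdh1 and Bdh2 came close in Ctrl, at 0.981 and 0.974 CPM per kb in their nearest libraries. Neither of these 2 genes was separated from background reads in Ctrl, so their order there is one among such reads. Levels were not compared between the tables, which differ in background reads.

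The other genes of the pathway were taken from 5 lists by role, 35 genes in all. In the first set 2 of 35 rose, 1 fell and 32 did not pass, where 1.18% of all genes tested passed, 0.740% as higher and 0.435% as lower, and the median log2 fold change was 0.10, against -0.01 over all genes. CPM ranges of Chaf1a cko and Ctrl lay apart for 11 of the 35, where 16.2% of all genes did. The mean level of 9 of the 35 was at or under the background level. The genes tested as a whole include many near that level. With a filter of 10 CPM in at least 3 libraries a larger share of all genes passed, as given at the end. All 3 genes that passed are from the list of partner reactions, which share a metabolite with ketone use. No gene of ketone synthesis, transport or sensing passed in the main edgeR fit. The lists differ in abundance, as the 9 genes at or under the background level are all outside the list of partner reactions. With DESeq2's Wald test 4 of the 35 passed.

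Of 12 genes of partner reactions 2 rose and 1 fell in the first set, each by a small amount. Sdhb, a subunit of succinate dehydrogenase, which uses the succinate that OXCT1 releases, was at 227, 223 and 213 CPM in Chaf1a cko and at 192, 173 and 183 CPM in Ctrl. It rose by 0.27 on the log2 scale (SE 0.06, adjusted p 0.0256 in edgeR). Cs, citrate synthase, which takes up acetyl-CoA, was at 417, 435 and 436 CPM in Chaf1a cko and at 383, 382 and 354 CPM in Ctrl (0.20, SE 0.05, adjusted p 0.0398 in edgeR). Acaa2, a mitochondrial thiolase of fatty acid oxidation, was at 179, 165 and 180 CPM in Chaf1a cko and at 220, 230 and 199 CPM in Ctrl. It fell by 0.31 on the log2 scale (SE 0.06, adjusted p 0.0214 in edgeR). These calls rest on all 6 libraries. Of the 35 genes, Sdhb alone stayed called without Ctrl replicate 1 and Acaa2 alone without Ctrl replicate 3, and 0 were called without Ctrl replicate 2 or without Chaf1a cko replicate 1, 2 or 3. With library size alone in place of TMM scaling, Sdhb (adjusted p 0.0505 in edgeR) and Cs (adjusted p 0.0804 in edgeR) did not pass, and Acaa2 did. With the replicate number as a block Cs did not pass (adjusted p 0.0799 in edgeR). The most abundant other members were Sdha, the catalytic subunit of the same dehydrogenase, and Hadha, of the trifunctional protein, with log2 fold changes of 0.09 and -0.12.

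Of 5 ketone synthesis genes 0 passed in the first set in the main edgeR fit, although not under every alternative setting. Of 3 genes for other ways of activating acetoacetate 0 passed. Aacs, the cytosolic acetoacetyl-CoA synthetase, had a log2 fold change of 0.24, and Oxct2a, a copy of the transferase known from testis, was below the background level.

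Of 8 transport genes 0 passed in the first set. Slc16a1, the monocarboxylate transporter MCT1, was at 144, 169 and 148 CPM in Chaf1a cko and at 144, 143 and 143 CPM in Ctrl (log2 fold change 0.10, adjusted p 0.684 in edgeR). Bsg, which encodes basigin, the partner that brings MCT1 to the membrane, had a log2 fold change of 0.16 (SE 0.05, adjusted p 0.176 in edgeR). Of 7 sensors and regulators 0 passed. Ppargc1a, a coactivator of mitochondrial genes, was at 224 ± 19.1 CPM in Chaf1a cko and 217 ± 15.2 CPM in Ctrl (SD, n = 3 each), and Ppara, a nuclear receptor of fatty acid use, had a log2 fold change of 0.18.

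In the 3M set 25 of the 35 genes were tested and 0 passed, where 0.0144% of all genes tested did. In edgeR 1 of them had an unadjusted p under 0.05, where 6.93% of all genes did, and DESeq2 called 0. Their median log2 fold change was 0.05, against -0.02 over all genes, and the groups lay apart for 4 of the 25, all higher in Chaf1a cko 3M, where 14.1% of all genes lay apart and 7.21% as higher. The gene with the unadjusted p was Slc16a1, at 51.4, 56.9 and 85.8 CPM in Chaf1a cko 3M and at 35.9, 34.5 and 34.1 CPM in Ctrl 3M. Its log2 fold change was 0.89 (SE 0.24, 95% interval 0.34 to 1.44). It did not pass in edgeR (adjusted p 0.589), and other settings that kept all libraries gave adjusted p-values of 0.147 to 0.651. The other 3 were Acat2, the cytosolic thiolase, Esrra, an estrogen-related receptor of mitochondrial genes, and Cs, with log2 fold changes of 0.80, 0.43 and 0.35. Acat2 was named after its values were seen. It was at 10.03, 9.05 and 12.2 CPM in Chaf1a cko 3M and at 7.22, 5.63 and 5.19 CPM in Ctrl 3M, and in the first set at 8.36, 9.51 and 9.47 CPM in Chaf1a cko and at 5.62, 6.57 and 7.33 CPM in Ctrl. Neither contrast passed for Acat2 (adjusted p 0.713 in the 3M set and 0.506 in the first set, edgeR), and reads may be split between it and its near-identical copy Acat3. The cardiomyocyte marker sum was also higher in Chaf1a cko 3M, chiefly through Myh6 and Ttn, as given above. Its part in the values of these pathway genes was not tested. Among the other abundant genes the log2 fold changes were -0.63 for Aacs, -0.15 for Bsg, 0.34 for Sirt3, a mitochondrial deacetylase, 0.40 for Ogdh and 0.27 for Hadha.

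**Figure D4:**
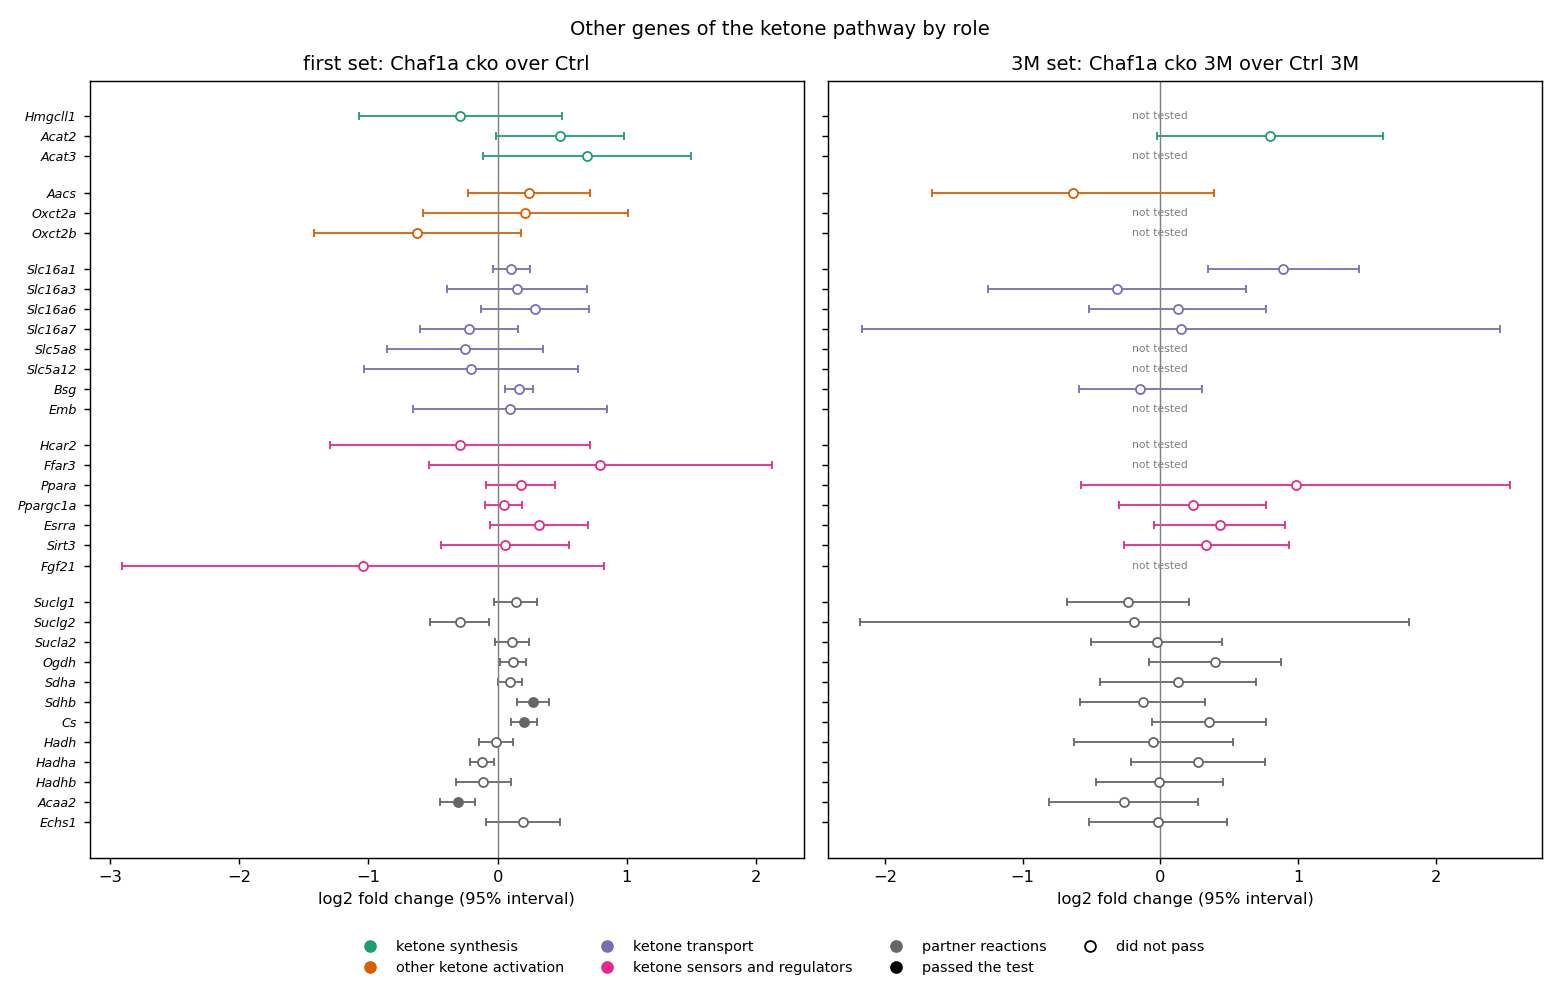
Log2 fold change with 95% interval (horizontal axis) of other pathway genes in the first set (left) and the 3M set (right), coloured by role, with filled points for genes that passed the test. Only Sdhb, Cs and Acaa2 of the first set are filled, and 10 genes were not tested in the 3M set.

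Genes with the profile most like those of Oxct1 and Bdh1 were ranked over all 12 libraries. Likeness was the root mean square difference of log2(CPM + 0.5), each gene centred on its own mean within each table. Ranked were genes with a mean of at least 10 CPM in both tables, without predicted or unnamed loci. The nearest to Oxct1 of 8213 genes were Gyg, which encodes glycogenin, the primer of glycogen, Oser1, and Ptcd3, a protein of mitochondrial translation, at differences of 0.10, 0.10 and 0.11, where the median gene was at 0.33. Gyg was at 130.9, 115.04 and 134.7 CPM in Chaf1a cko and at 84.9, 84.3 and 86.8 CPM in Ctrl. Like Oxct1, it had groups that lay apart in the first set and overlapped in the 3M set, at 90.5, 77.9 and 82.0 CPM in Chaf1a cko 3M and at 62.2, 69.8 and 82.2 CPM in Ctrl 3M.

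The nearest to Bdh1 were less near. Bdh1 itself, at a mean of 8.16 CPM in the first set, was below the 10 CPM asked of the ranked genes. Stmn1, which encodes the microtubule regulator stathmin, Ivns1abp and Mcrip2 differed from it by 0.40, 0.41 and 0.42, where the median of 8214 genes was 0.77. What they shared with Bdh1 was chiefly the low Ctrl 3M replicate 1. Ivns1abp was at 1243 CPM there, against 4028 and 4174 CPM in the other Ctrl 3M libraries, and Stmn1 at 11.2 CPM against 28.1 and 30.4. In the first set their log2 fold changes of 0.45 for Stmn1, 0.34 for Ivns1abp and 0.69 for Mcrip2 were smaller than the 1.40 of Bdh1. The ranking is a description of these libraries and carries no test.

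**Figure D5:**
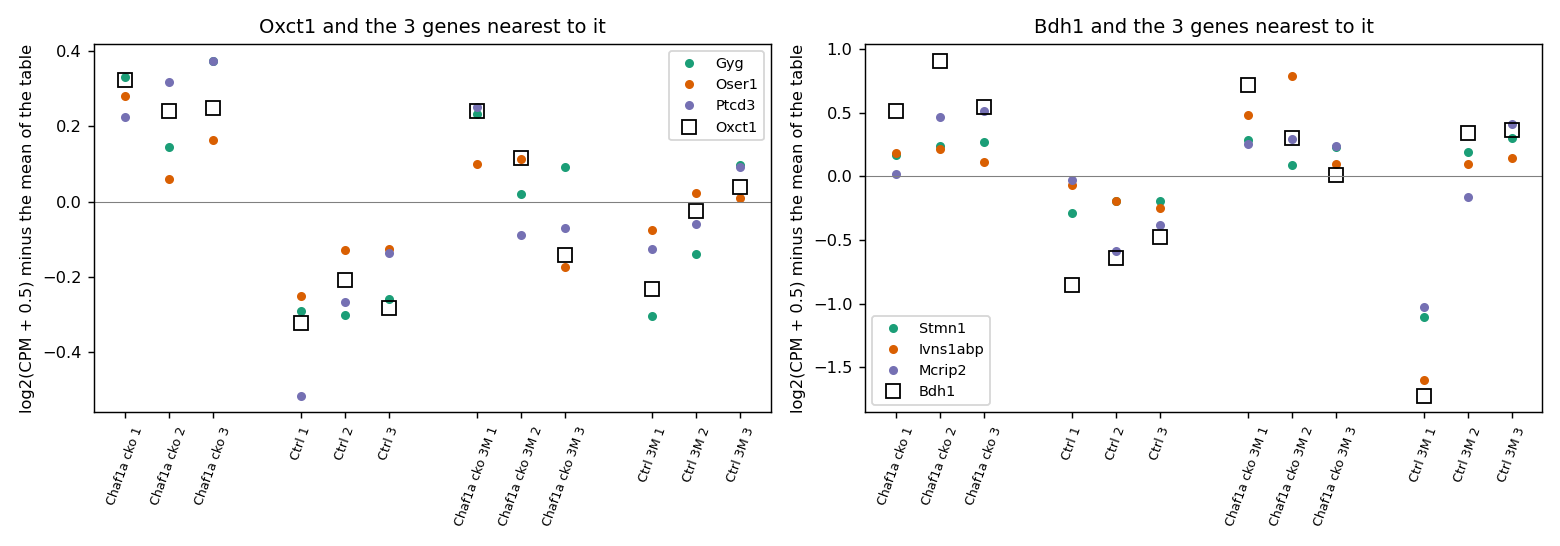
Log2(CPM + 0.5) minus the mean of the table (vertical axis) in each library for Oxct1 (left, squares), Bdh1 (right, squares) and the 3 genes nearest to each (dots). Oxct1 and its neighbours lie above 0 in Chaf1a cko and below 0 in Ctrl of the first set, and Bdh1 and its neighbours reach their lowest values in Ctrl 3M replicate 1.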

How the data were processed

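Stranded libraries of total RNA, depleted of ribosomal RNA per the labels' protocols, were deposited by the authors as counts, whole numbers per gene symbol and library without normalization, in 2 tables of 6 libraries. Per the submitters' processing notes, FastQC, Trimmomatic and HISAT2 with mm10 were used. How reads were counted was not given in the sources used here. Of 25239 symbols 25041 matched RefSeq on GRCm38.p6, which gave coordinates and promoter sequences.

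Groups came from the sample titles. Nothing says that the libraries came from separate animals, so p-values reflect the spread between libraries, which may be technical. Tables were fitted separately with edgeR 4.0.16 (R 4.3.3): filterByExpr (minimum count 10, minimum total 15), TMM, robust glmQLFit and glmQLFTest, two-sided, with Benjamini-Hochberg adjustment over all genes tested and a threshold of 0.05. The script was tested on simulated data. Intervals cover counting error and the spread between libraries.

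The members, lists and tests were chosen with earlier results of these data known. Named were the members, Chaf1a, and of each role list the called genes and the 2 most abundant ones. The 3 genes nearest to Oxct1 and to Bdh1 completed the rule. Of the genes that it names, 2 are not reported here, although the counts over the lists include them. Leaving out each library, a replicate block, 2 other filters, DESeq2 1.42.0, its size factors in edgeR and no scaling factors were tried as alternatives.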

Additional observations from a re-analysis of the deposited data

How the results depend on the processing

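The first-set log2 fold changes of Oxct1, Bdh1 and Acat1 moved by less than the spread between libraries under every alternative tried, from 0.51 to 0.57, from 1.26 to 1.51 and from 0.07 to 0.16. That of Bdh2 ran from -0.99 to 0.73 when libraries were left out, and none of the 4 members passed in the 3M set under any alternative. In the 3M set, leaving out libraries gave 0.06 to 0.25 for Oxct1, 0.02 to 0.73 for Bdh1, -0.10 to 0.28 for Acat1 and -0.93 to 2.58 for Bdh2. With the replicate block Bdh2 was at -0.090 there. Same-numbered libraries deviated together weakly at most (correlations of -0.04 to 0.04 in the first set, 0.03 to 0.06 in the second). Libraries of unlike numbers were at -0.08 to 0.04 in the first set and at -0.07 to 0.01 in the second, so the 3M pairs ranked highest there. As all these values were small, the numbers were not taken as pairs. The block left 2 of the 35 pathway genes called in the first set and moved the count over all genes to 192 there and to 0 in the 3M set.

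The count of called pathway genes in the first set was 1, Acaa2, with library size alone, 5 with a filter of 10 CPM in at least 3 libraries and 0 to 1 when libraries were left out. Over all genes, the first-set count was 479 with DESeq2 and 128 to 201 with libraries left out, against 270. The filter of 10 CPM gave 191 higher and 175 lower of 10402 genes tested, against 170 and 100 of 22965. It removed Bdh2 from both sets. The 3M count was 72 with DESeq2, 6 without a filter and 0 to 5 with libraries left out, against 2. Chaf1a ran from -0.13 to 0.27 in the first set and from -0.16 to 0.96 in the 3M set. When single libraries were left out, signs also turned for Ppargc1a (-0.012 to 0.11) and Oxct2a (-0.060 to 0.39) in the first set. The cause of these shifts was not tested. The spread between 3M libraries limits what that set can show: the interval of Oxct1 reached from -0.28 to 0.58.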
